A study of Mus musculus with 12 samples.

Results

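The 31 genes described here act in the SREBP pathway, which sets how much cholesterol and fatty acid a cell makes. They were taken by name and not by a cut on measured values, but with earlier results of these data known. Each matched 1 of the 25759 genes measured. The list holds 4 regulators, 7 enzymes of the mevalonate and squalene steps, 10 enzymes of the sterol steps after squalene, 9 enzymes of fatty acid synthesis and desaturation, and the sterol carrier Stard4. RNA of mouse HATX3 embryonic stem cells (ESCs) was sequenced in 12 libraries, 3 in each of 4 groups. HATX3 cells carry a doxycycline-inducible promoter at the endogenous Xist gene and the transactivator that answers to doxycycline at Rosa26, so that Xist, the RNA that silences the X chromosome, is made on demand, and all 4 groups share both alleles. The groups were wild-type replicates 1, 2 and 3 and ΔCdk8 clones 8, 11 and 15, each uninduced and after 48 h with 1 µg/ml doxycycline. Cdk8 encodes the cyclin-dependent kinase of the Mediator complex, and the mutation removed sequence around its start codon with CRISPR nucleases. Each ΔCdk8 line grew from 1 cell, whereas the wild-type parent was a polyclonal culture that could include some differentiated cells, and a clone's induced and uninduced libraries come from the same line. Nothing states whether the wild-type replicates were separate cultures, so p-values measure the spread between these libraries.

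SREBP proteins are transcription factors made as precursors in the membrane of the endoplasmic reticulum. When sterols are scarce the escort protein SCAP carries them to the Golgi, where proteases release the part that enters the nucleus and switches on genes of sterol and fatty acid synthesis; when sterols are plentiful, INSIG proteins hold SCAP and the precursor back. Srebf2 encodes the form that mainly drives cholesterol genes and Srebf1 the forms that mainly drive fatty acid genes. CDK8 has been reported to phosphorylate nuclear SREBP and mark it for degradation. SREBP binds promoters together with NF-Y, a factor that recognises the CCAAT box.

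RefSeq promoters, from 250 bases before to 50 bases after each annotated start in GRCm38.p6, were matched to 24 of the 31 genes. Fdps, Fdft1, Sqle, Scd1, Scd2, Fads1 and Stard4 had no entry. CCAAT, searched on both strands, was present in a promoter of 21 of these 24 genes (87.5%), against 41.1% of all 27025 genes with an entry. TCACNCCAC, a form of the sterol regulatory element that SREBP binds, was found in Hmgcs1 alone (4.17% against 1.44% of all genes), and CACGTG, an E-box that SREBP can also bind, in Dhcr7, Hsd17b7, Insig1 and Sc5d (16.7% against 8.09%). The motifs do not overlap one another in the sequences printed here, and a match of letters is a description, not a bound site. The 250 bases upstream of the start are printed 5′ to 3′ on the gene's strand for 5 genes whose levels are followed in detail, a mevalonate enzyme with both motifs, a later sterol enzyme, an X-linked enzyme, and a pair of regulators. Capitals mark the matches, and ATTGG is CCAAT on the other strand.
Hmgcs1, chr13:119690101-119690350, plus strand: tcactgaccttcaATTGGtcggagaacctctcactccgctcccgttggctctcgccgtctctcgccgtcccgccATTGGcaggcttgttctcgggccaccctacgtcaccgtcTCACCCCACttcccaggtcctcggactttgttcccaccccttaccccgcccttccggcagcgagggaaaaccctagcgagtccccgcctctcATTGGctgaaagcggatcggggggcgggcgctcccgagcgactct
Cyp51, chr5:4104698-4104947, minus strand: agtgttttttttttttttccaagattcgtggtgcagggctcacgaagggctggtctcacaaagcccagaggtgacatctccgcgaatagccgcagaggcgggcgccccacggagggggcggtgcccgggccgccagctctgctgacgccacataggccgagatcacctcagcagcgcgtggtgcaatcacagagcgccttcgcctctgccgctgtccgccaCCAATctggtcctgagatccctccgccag
Nsdhl, chrX:72918271-72918520, plus strand: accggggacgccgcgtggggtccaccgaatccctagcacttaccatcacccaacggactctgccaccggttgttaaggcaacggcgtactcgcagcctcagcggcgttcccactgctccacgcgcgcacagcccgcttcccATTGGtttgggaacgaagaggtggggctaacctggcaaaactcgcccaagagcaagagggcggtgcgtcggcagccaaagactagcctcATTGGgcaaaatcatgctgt
Insig1, chr5:28071162-28071411, plus strand: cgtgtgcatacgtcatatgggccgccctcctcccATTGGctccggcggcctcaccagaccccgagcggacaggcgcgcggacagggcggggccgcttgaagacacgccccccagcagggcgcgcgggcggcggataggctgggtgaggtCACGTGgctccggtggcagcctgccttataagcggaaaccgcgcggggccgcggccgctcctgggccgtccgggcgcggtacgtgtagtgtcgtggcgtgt
Srebf2, chr15:82147019-82147268, plus strand: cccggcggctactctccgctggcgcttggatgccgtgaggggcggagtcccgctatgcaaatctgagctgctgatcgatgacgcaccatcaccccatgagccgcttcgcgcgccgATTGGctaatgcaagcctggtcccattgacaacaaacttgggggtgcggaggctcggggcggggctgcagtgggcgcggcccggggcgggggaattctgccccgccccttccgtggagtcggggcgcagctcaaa
The element in Hmgcs1 starts 137 bases before the start, and CCAAT boxes lie 237, 176 and 45 bases before it. Cyp51 has 1 CCAAT box, 29 bases before the start. Nsdhl has 2 in this stretch, 109 and 20 bases before the start, and Insig1 has its E-box at 101 and its CCAAT box at 216 bases.

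The libraries held between 22170087 and 60798578 reads in genes, and the fewest reads for any of the 31 genes in 1 library were 143, for Ebp. Cdk8 itself was read at 64.2, 69.4 and 74.2 TPM in uninduced wild-type replicates 1, 2 and 3 and at 34.4, 56.8 and 85.3 TPM in clones 8, 11 and 15, so clone 15 lay above every wild-type library. TPM is a level per transcript length, scaled to the same total in every library. The deletion is small, and reads from the rest of the transcript do not check the label. The study checked the clones for Cdk8 at the protein level, which is not analysed here. The 10 pluripotency markers summed to 4388 to 7554 TPM in uninduced wild-type and 4967 to 7853 TPM in uninduced ΔCdk8 libraries, and to 6053 to 6880 and 4963 to 8010.1 TPM after induction, mostly Dppa5a and Pou5f1. In uninduced cells 5 of the 10 were higher in every clone than in every wild-type library and 0 lower, against 16.3% and 6.79% of all genes, among them Nanog with 192 to 403 against 50.2 to 157 TPM and Tfcp2l1 with 76.7 to 102 against 10.01 to 39.4 TPM. After induction 2 were higher and 1 lower in this sense, against 18.6% and 10.1% of all genes. The 10 primitive endoderm markers summed to 167 to 306 TPM in uninduced wild-type and 347 to 586 TPM in uninduced ΔCdk8 libraries, mostly Sparc, with Sox17, Foxa2 and Pdgfra below 1 TPM in every library. The 8 trophoblast markers summed to 43.5 to 192 and 90.8 to 587 TPM in the same groups, with none below 1 TPM in every library, and the 8 fibroblast markers to 8.81 to 17.8 and 19.8 to 29.5 TPM, with Col3a1, Dcn, Lum and Twist2 below 1 TPM throughout. After induction the sums in wild-type and ΔCdk8 libraries were 274 to 415 and 373 to 740.4 TPM for primitive endoderm, 26.7 to 228 and 90.0 to 492 TPM for trophoblast, and 5.70 to 15.2 and 21.5 to 32.4 TPM for fibroblasts. Of these other lists, 2 primitive endoderm, 1 trophoblast and 0 fibroblast markers were higher in every clone than in every wild-type library before induction, and 2, 1 and 1 after it, with 0 lower in either condition. Among them were Sparc before induction, with 296 to 525 against 148 to 266 TPM, and Eomes, a trophoblast factor, with 3.84 to 14.1 against 1.45 to 3.64 TPM. Their part in the differences between genotypes was not tested. In these bulk libraries, more cells of a type and more RNA per cell cannot be told apart.

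The sterol enzymes had a higher summed level in ΔCdk8 than in wild-type ESCs, although 5 of the 17 taken singly overlapped with wild type before induction, and after Xist induction their summed level was lower in wild-type cells and close to the uninduced level in ΔCdk8 cells. The 17 enzymes of both sterol stages summed to 1467, 1146 and 1046 TPM in uninduced wild-type replicates 1, 2 and 3 and to 2568, 1709.8 and 2432 TPM in uninduced clones 8, 11 and 15. After induction the sums were 884, 803 and 778 TPM in wild-type and 2498, 1554 and 2288 TPM in the clones. Neither pair of ranges overlapped, and the ratio of the ΔCdk8 to the wild-type mean was 1.83 uninduced and 2.57 induced. Without Fdps, Pmvk and Fdft1, which lie on chromosomes 3 and 14, whose median gene was higher in clones 8 and 15 for chromosome 3 and in all 3 clones for chromosome 14, the other 14 enzymes summed to 781 to 1002 TPM in uninduced wild type and 1215 to 1570.2 TPM in the clones, and the ratio of the means was 1.61 uninduced and 2.32 induced. Relative to the uninduced library of the same number, the induced sterol sum was 0.603, 0.701 and 0.743 in wild-type replicates 1, 2 and 3, and 0.973, 0.909 and 0.941 in clones 8, 11 and 15. The sterol and fatty acid sums were not tested against each other. The ratio of the means was lower in both conditions for the 9 fatty acid enzymes. They summed to 1052, 999 and 863 TPM in uninduced and 646, 776 and 804 TPM in induced wild-type libraries, and to 1461, 1287 and 1308 and 1274, 1147 and 1149 TPM in the clones, again without overlap between genotypes. TPM of all 12131 expressed genes had a median log2 ratio of 0.15 between uninduced ΔCdk8 and wild-type libraries. With each library divided by its median ratio, the genotype ratio of the sterol sum was 1.65 uninduced and 2.34 induced, and that of the fatty acid sum 1.26 and 1.47. With 3 libraries against 3, an exact test of a single value cannot go below p = 0.10, and none was made on these sums because the genes were chosen with results known.

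**Figure D1:**
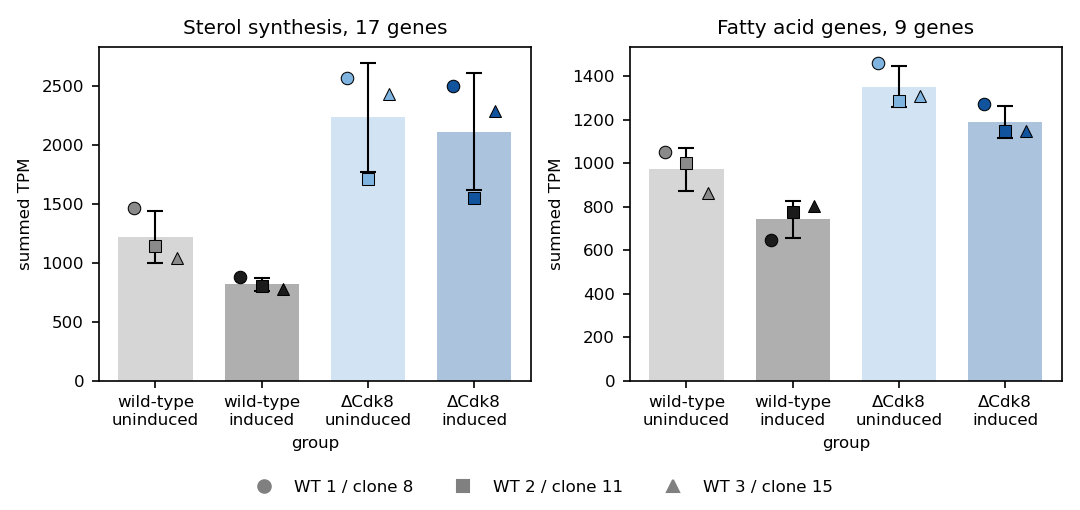
Summed TPM of the 17 sterol enzymes (left) and the 9 fatty acid enzymes (right) in each library, by group; bars are means, error bars the SD (n = 3), and symbols the single libraries. The uninduced clones sum to 1709.8 to 2568 TPM for sterol synthesis, above the 1046 to 1467 TPM of wild type, and the wild-type mean is 1219.8 TPM before and 822 TPM after induction.

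Fold changes come from quasi-likelihood fits to the read counts in edgeR, with p adjusted over all genes tested, and are given on the log2 scale with their standard error (SE). A gene was called when it differed more than 2-fold at an adjusted p under 0.01. In uninduced cells the median log2 fold change of the 31 genes in ΔCdk8 against wild type was 0.63, and that of all 14646 genes tested 0.03. None of the 31 was called, like 0.0% of all genes, but 18 were higher at an unadjusted p under 0.05, where 11.9% of all genes were. In 19 of 31 the TPM of every clone exceeded that of every wild-type library, which held for 16.3% of all genes, and in 0 of 31 the reverse, against 6.79%. DESeq2 called 3 genes higher, Tm7sf2, Scd1 and Stard4, against 1.8% of all genes, and put 14 at an adjusted p under 0.05, against 5.51%. By role the median was 0.51 for the regulators, 0.66 for the mevalonate and squalene enzymes, 0.67 for the enzymes after squalene and 0.14 for the fatty acid enzymes. In induced cells the median was 0.98, against 0.03 for all 14143 genes. Again none of the 31 was called by edgeR, like 0.0% of all genes. Scd1 alone had an adjusted p under 0.05, as did 0.0141% of all genes, and 24 had an unadjusted p under 0.05 with higher levels, against 14.9%. In 24 of 31 every clone exceeded every wild-type library, against 18.6% of all genes, and in 0 the reverse, against 10.1%. DESeq2 called 14 genes higher (Insig1, Pmvk, Fdps, Sqle, Lss, Cyp51, Tm7sf2, Msmo1, Nsdhl, Ebp, Dhcr7, Scd1, Fads1 and Stard4), against 3.83% of all genes, and put 22 at an adjusted p under 0.05, against 8.94%. An edgeR fit of all 12 libraries called 8, against 0.727%, and a fit without the filter on low counts called 1, against 0.0105%. By role the median was 0.60 for the regulators, 0.92 and 1.35 for the earlier and later sterol enzymes and 0.55 for the fatty acid enzymes. The edgeR calls depended on clone 11. Without it 4 genes, Fdps, Msmo1, Scd1 and Stard4, were called in induced cells, against 0.109% of all genes. The induced and uninduced libraries of a clone are not independent, so the second contrast is no separate support for the first.

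**Figure D2:**
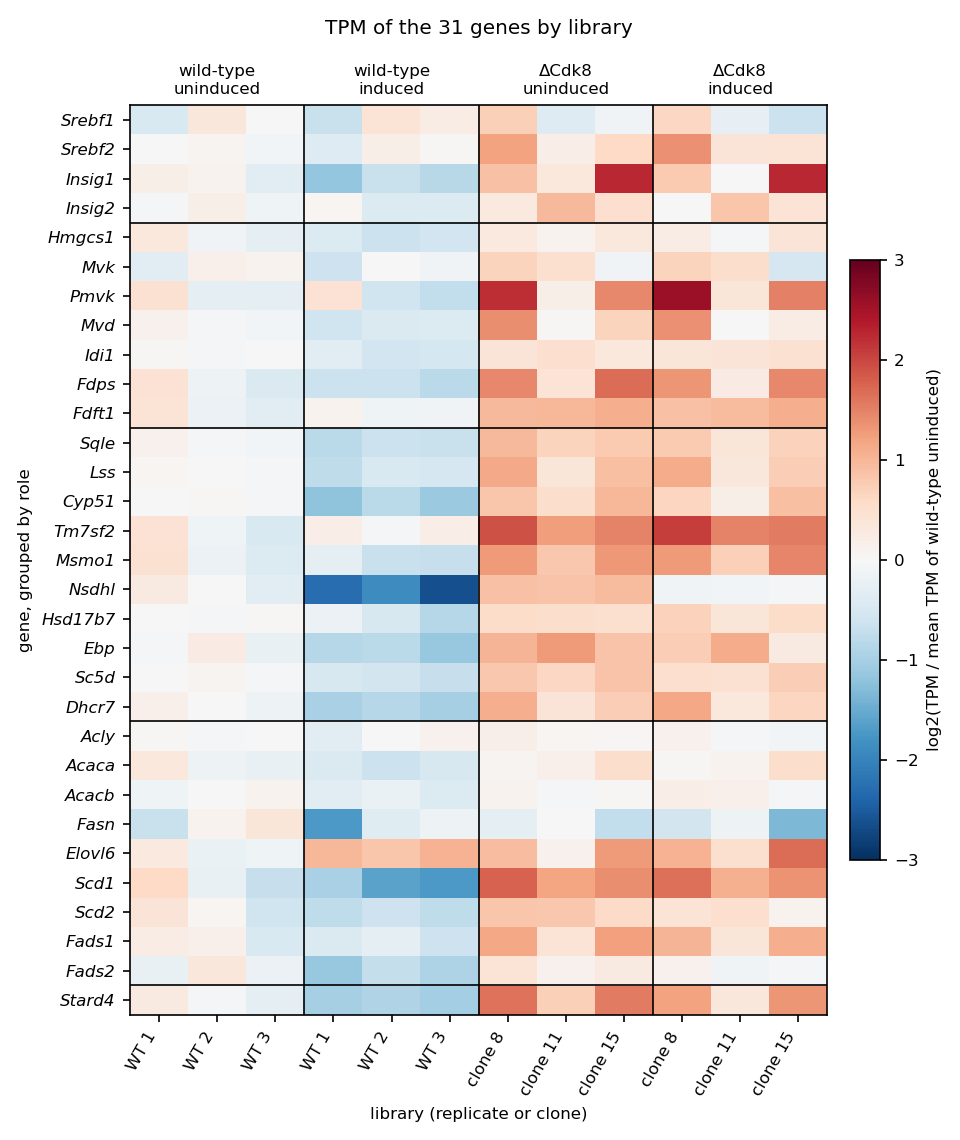
TPM of each of the 31 genes (rows, grouped by role) in each of the 12 libraries (columns, by group), as log2 of the ratio to the mean of uninduced wild type; red is higher and blue lower. The block of sterol steps after squalene is red in nearly all ΔCdk8 libraries and blue in induced wild type apart from Tm7sf2, while Nsdhl is near 0 in the induced clones. The uninduced TPM of the clones lay above every uninduced wild-type library for 10 of these 10 genes, against 16.3% of all genes.

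**Figure D3:**
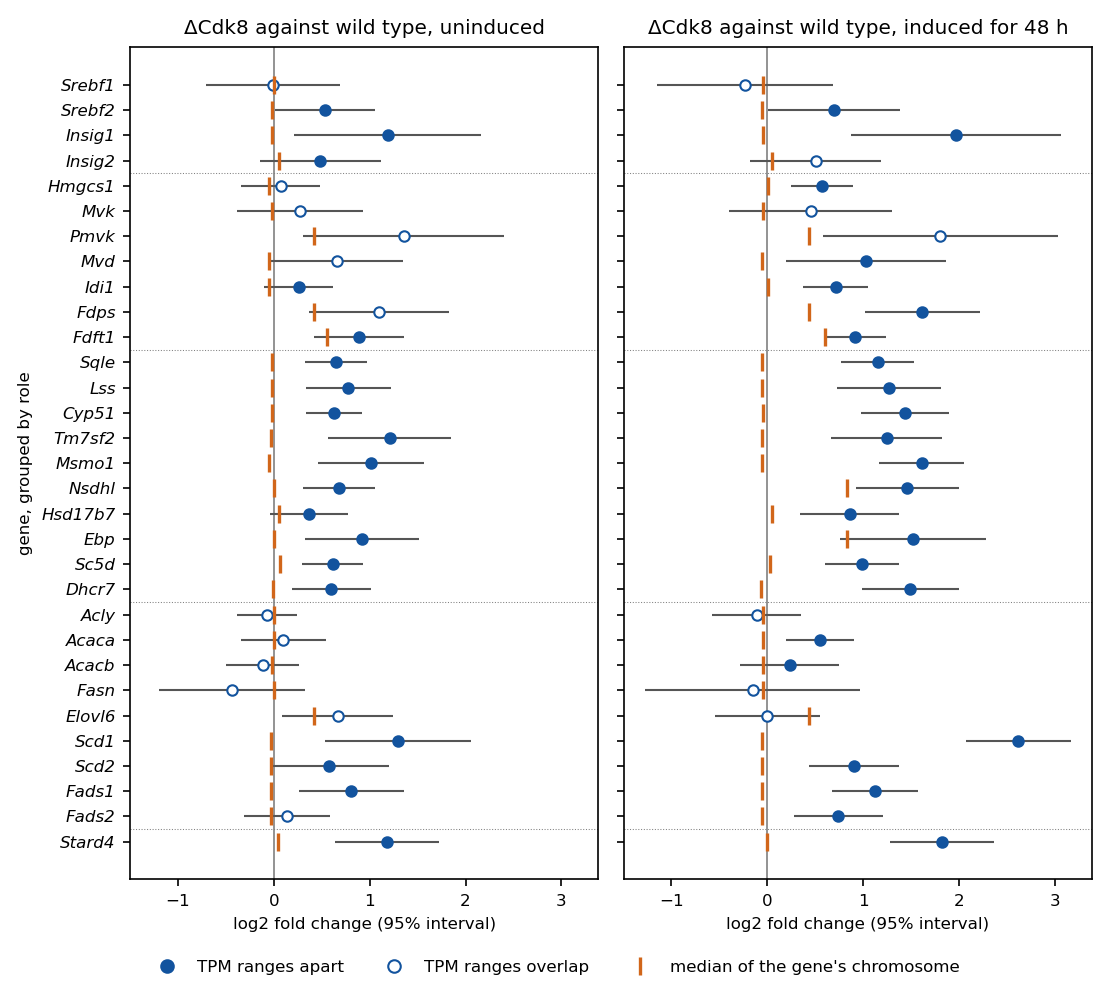
Log2 fold change of ΔCdk8 against wild type for each gene (rows), uninduced (left) and induced (right), by edgeR (3 libraries against 3). The 95% intervals were derived from the F statistic. Filled points are genes whose TPM ranges did not overlap, and orange ticks the median fold change of the genes on the same chromosome. In uninduced cells 27 of 31 estimates lie above 0 and in induced cells 28.

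Among the regulators, Insig1 and Srebf2 stood higher in the clones and Srebf1 did not. Insig1, which retains SREBP in the endoplasmic reticulum and is itself an SREBP target, was at 85.9, 82.5 and 61.2 TPM in uninduced wild-type replicates 1, 2 and 3, 34.1, 47.9 and 43.3 TPM in the induced ones, 141, 94.8 and 365 TPM in uninduced clones 8, 11 and 15 and 131, 77.5 and 366 TPM in the induced clones. Clone 15 stood apart, with more than any other library in both conditions. The log2 fold change against wild type was 1.19 ± 0.42 (SE; adjusted p = 0.197, edgeR) uninduced and 1.97 ± 0.47 (adjusted p = 0.0725, edgeR) induced. Without clone 15 the uninduced estimate was 0.53, and without clone 11 it was 1.47. Without clone 15 the induced estimate was 1.25. Srebf2 was at 91.1, 95.7 and 86.3 TPM in uninduced wild-type replicates 1, 2 and 3, 69.7, 104 and 93.8 TPM in the induced ones, 210.0, 105 and 138 TPM in uninduced clones 8, 11 and 15 and 235, 119.6 and 121 TPM in the induced clones, with clone 8 highest. Its log2 fold change was 0.53 ± 0.22 uninduced and 0.69 ± 0.30 induced (adjusted p = 0.2397 and 0.190, edgeR). The groups did not overlap in either condition, although clone 11 lay close to wild type. With 1 library left out the estimate of Srebf2 ran from 0.25 to 0.69 uninduced and from 0.30 to 0.89 induced. Srebf1 was at 22.5, 39.1 and 30.7 TPM in uninduced wild-type replicates 1, 2 and 3, 19.3, 41.1 and 36.0 TPM in the induced ones, 50.7, 23.6 and 28.7 TPM in uninduced clones 8, 11 and 15 and 47.7, 26.0 and 19.6 TPM in the induced clones. Its groups overlapped in every comparison, and its 95% interval of the log2 difference ran from -0.70 to 0.69 uninduced, which is wide enough to hold sizeable differences in both directions. Insig2, the paralogue of Insig1, averaged 15.6 ± 1.67 TPM (mean ± SD, n = 3) in uninduced wild type and 24.1 ± 6.01 TPM in uninduced clones without overlap, at a log2 fold change of 0.49 ± 0.27 (adjusted p = 0.322, edgeR). With 1 library left out this estimate ran from 0.14 to 0.65. After induction Insig2 averaged 13.2 ± 2.57 and 21.3 ± 6.08 TPM, with overlap. Part of the reads of Srebf1 lie where Rai1 overlaps it, and the assignment of such reads was not checked.

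The mevalonate and squalene steps turn acetyl-CoA units into squalene, and most of these 7 enzymes stood higher in the clones after induction. Hmgcs1, the synthase that makes HMG-CoA, had the second highest mean of the 7 in the clones, after Fdps. It was at 275, 203 and 183 TPM in uninduced wild-type replicates 1, 2 and 3, 167, 139.9 and 148 TPM in the induced ones, 268, 236 and 275 TPM in uninduced clones 8, 11 and 15 and 257, 214 and 288 TPM in the induced clones. Uninduced groups overlapped, and after induction every clone exceeded every wild-type library, at a log2 fold change of 0.57 ± 0.14 (adjusted p = 0.0753, edgeR). Idi1, which isomerises isopentenyl diphosphate, was at 131, 123 and 129 TPM in uninduced wild-type replicates 1, 2 and 3, 102, 85.4 and 88.4 TPM in the induced ones, 167, 182 and 159 TPM in uninduced clones 8, 11 and 15 and 164, 167 and 175 TPM in the induced clones. The clones were above wild type throughout with little spread, at 0.26 ± 0.15 uninduced and 0.71 ± 0.15 induced (adjusted p = 0.347 and 0.0583, edgeR). Fdps, farnesyl diphosphate synthase, was at 289, 194 and 159.9 TPM in uninduced wild-type replicates 1, 2 and 3, 138, 137 and 123 TPM in the induced ones, 584, 282 and 689 TPM in uninduced clones 8, 11 and 15 and 538, 255 and 582 TPM in the induced clones. Clones 8 and 15 held much more than clone 11, and wild-type replicate 1 just exceeded clone 11 before induction. The log2 fold change was 1.10 ± 0.31 uninduced and 1.61 ± 0.26 induced (adjusted p = 0.162 and 0.0534, edgeR). Only 26.4% of the Fdps reads mapped to 1 place, so its level is uncertain. Pmvk, phosphomevalonate kinase, had the widest log2 range of the 31 genes over the uninduced clones, and was at 78.7, 47.8 and 46.8 TPM in uninduced wild-type replicates 1, 2 and 3, 77.5, 38.1 and 34.8 TPM in the induced ones, 269, 65.6 and 158 TPM in uninduced clones 8, 11 and 15 and 343, 74.0 and 165 TPM in the induced clones. Its estimates of 1.35 ± 0.45 and 1.80 ± 0.53 came with overlapping groups (adjusted p = 0.185 and 0.0980, edgeR), and without clone 8 they were 0.80 and 1.10. Mvd, mevalonate diphosphate decarboxylase, averaged 50.1 ± 3.62 TPM in induced wild type and 111 ± 60.9 TPM in induced clones without overlap, at 1.03 ± 0.36 (adjusted p = 0.133, edgeR). With 1 library left out this estimate ran from 0.46 to 1.26. Uninduced, Mvd averaged 69.6 ± 5.99 and 121 ± 57.1 TPM with overlap. Mvk, mevalonate kinase, averaged 18.6 ± 3.15, 15.9 ± 3.43, 24.2 ± 6.27 and 23.2 ± 8.94 TPM in the uninduced and induced wild-type and the uninduced and induced ΔCdk8 groups, which overlapped in all comparisons.

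Some of these genes lie on chromosomes whose genes were higher as a whole in the clones. Over the 526 expressed genes of chromosome 3, the median log2 ratio of uninduced clones 8, 11 and 15 to wild type, less the median over autosomes, was 0.50, -0.02 and 0.63, and over the 420 of chromosome 14 it was 0.46, 0.57 and 0.58. For the other chromosomes that carry genes of the list these medians lay between -0.14 and 0.08. Fdps, Pmvk and Elovl6 are on chromosome 3 and Fdft1, squalene synthase, is on chromosome 14. Less the median of their own chromosome, the log2 ratios in clones 8, 11 and 15 were 0.81, 0.44 and 0.84 for Fdps, 1.58, 0.22 and 0.61 for Pmvk and 0.30, 0.16 and 0.43 for Elovl6. Fdft1 was at 97.3, 65.7 and 58.3 TPM in uninduced wild-type replicates 1, 2 and 3, 78.9, 67.3 and 68.0 TPM in the induced ones, 144, 146 and 156 TPM in uninduced clones 8, 11 and 15 and 136, 142 and 157 TPM in the induced clones, with all clones above all wild-type libraries, but its log2 fold change of 0.89 ± 0.20 uninduced was 0.33 less the median of its chromosome, and that of 0.92 ± 0.14 induced was 0.32 (adjusted p = 0.130 and 0.0534 before this subtraction, edgeR). Over all 31 genes the median of 0.63 in uninduced cells was 0.61 less the chromosome medians, and 27 stayed above 0. In induced cells 0.98 became 0.81.

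All 10 enzymes after squalene were higher in every clone than in every wild-type library in each condition. This held for 16.3% of all genes uninduced and 18.6% induced. Sqle, squalene epoxidase, was at 103, 91.5 and 88.7 TPM in uninduced wild-type replicates 1, 2 and 3, 54.4, 60.6 and 59.7 TPM in the induced ones, 186, 149.8 and 162 TPM in uninduced clones 8, 11 and 15 and 162, 121 and 152 TPM in the induced clones. Its log2 fold change was 0.65 ± 0.14 uninduced and 1.15 ± 0.16 induced (adjusted p = 0.128 and 0.0528, edgeR). Cyp51, lanosterol demethylase, was at 57.2, 57.9 and 53.9 TPM in uninduced wild-type replicates 1, 2 and 3, 24.3, 32.4 and 26.1 TPM in the induced ones, 101, 81.2 and 112 TPM in uninduced clones 8, 11 and 15 and 87.5, 63.9 and 105 TPM in the induced clones. The wild-type libraries lay within a few TPM of each other before induction, and the fold change of 0.63 ± 0.13 uninduced was 1.44 ± 0.20 after induction (adjusted p = 0.124 and 0.0528, edgeR). Dhcr7, the reductase of the last step to cholesterol, was at 56.9, 50.5 and 45.5 TPM in uninduced wild-type replicates 1, 2 and 3, 25.9, 28.0 and 25.6 TPM in the induced ones, 109, 66.4 and 85.4 TPM in uninduced clones 8, 11 and 15 and 113, 63.5 and 79.5 TPM in the induced clones. Here too the difference was larger after induction, 1.49 ± 0.22 against 0.60 ± 0.18 before it (adjusted p = 0.0534 and 0.167, edgeR). Msmo1, which oxidises the sterol methyl groups, was at 151, 96.9 and 83.4 TPM in uninduced wild-type replicates 1, 2 and 3, 89.7, 69.9 and 68.3 TPM in the induced ones, 268, 192 and 271 TPM in uninduced clones 8, 11 and 15 and 267, 182 and 305 TPM in the induced clones. Its fold changes were 1.01 ± 0.24 and 1.61 ± 0.19 (adjusted p = 0.135 and 0.0526, edgeR), the latter the largest of the 10 genes. Tm7sf2, a sterol reductase, was scarce at 9.34, 6.32 and 4.99 TPM in uninduced wild-type replicates 1, 2 and 3, 7.85, 6.58 and 7.89 TPM in the induced ones, 26.0, 16.5 and 19.2 TPM in uninduced clones 8, 11 and 15 and 29.0, 19.2 and 20.2 TPM in the induced clones. It was higher in the clones by 1.21 ± 0.27 and 1.25 ± 0.25 (adjusted p = 0.130 and 0.0574, edgeR). Vps51 overlaps Tm7sf2, Akap9 overlaps Cyp51, Gm20388 overlaps Mvd and Ctsb overlaps Fdft1, and how reads were divided in the shared stretches was not checked.

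For the remaining 5 enzymes, the group means of uninduced and induced wild type and uninduced and induced ΔCdk8 are given in this order with their SD. Lss averaged 44.9 ± 2.05, 30.3 ± 3.35, 80.4 ± 20.8 and 76.3 ± 20.4 TPM, and Lss makes lanosterol. Sc5d averaged 14.9 ± 0.767, 9.998 ± 0.752, 25.4 ± 2.05 and 22.1 ± 2.47 TPM, and this desaturase had 0.66, 0.65 and 0.65 as log2 ratios in uninduced clones 8, 11 and 15, the closest agreement between clones among the 10. Hsd17b7 averaged 8.69 ± 0.219, 6.27 ± 1.45, 12.5 ± 0.226 and 12.7 ± 1.38 TPM, and the enzyme reduces the keto group left by demethylation. Nsdhl averaged 34.7 ± 7.32, 7.38 ± 1.92, 64.7 ± 1.88 and 32.8 ± 0.546 TPM, and Ebp averaged 15.6 ± 2.72, 8.24 ± 0.993, 32.7 ± 4.87 and 26.2 ± 7.42 TPM. Nsdhl, a dehydrogenase of the same demethylation, and Ebp, a sterol isomerase, are the 2 X-linked genes of the list. The uninduced log2 fold changes were 0.77 ± 0.19 for Lss, 0.61 ± 0.14 for Sc5d, 0.37 ± 0.17 for Hsd17b7, 0.68 ± 0.16 for Nsdhl and 0.92 ± 0.25 for Ebp, with adjusted p from 0.130 to 0.272 (edgeR). After induction they were 1.27 ± 0.23 for Lss, 0.98 ± 0.17 for Sc5d, 0.86 ± 0.22 for Hsd17b7, 1.46 ± 0.23 for Nsdhl and 1.52 ± 0.33 for Ebp, with adjusted p from 0.0534 to 0.0815. For the X-linked pair the induced difference includes the X chromosome's own, 0.83 over its 456 tested genes. Less that median it was 0.63 for Nsdhl and 0.69 for Ebp, where 0.68 and 0.92 had been found in the same way before induction.

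Of the 9 fatty acid enzymes, Scd1, Scd2 and Fads1 were higher in every clone than in every wild-type library before induction, against 16.3% of all genes. Fads2, Acly, Acaca, Acacb, Fasn and Elovl6 overlapped. After induction Fads2, Acaca and Acacb also stood apart, so that 6 of 9 did, against 18.6% of all genes. Subsets of these enzymes were not tested against each other. Scd1, stearoyl-CoA desaturase, lies on chr19:44394451-44407709 and was at 93.3, 52.2 and 38.1 TPM in uninduced wild-type replicates 1, 2 and 3, 31.4, 20.01 and 18.4 TPM in the induced ones, 207, 139 and 161 TPM in uninduced clones 8, 11 and 15 and 192, 129 and 157 TPM in the induced clones. Every clone was above every wild-type library. Scd1 had the largest difference of all 31 genes after induction, 2.62 ± 0.24 or 6.13-fold, and the only adjusted p under 0.05 (0.0213, edgeR). Before induction it was 1.30 ± 0.33 (adjusted p = 0.145, edgeR). Scd2, a second desaturase of the same kind and the more abundant one in ESCs, was at 338, 273 and 172 TPM in uninduced wild-type replicates 1, 2 and 3, 155, 169 and 155 TPM in the induced ones, 461, 455 and 385 TPM in uninduced clones 8, 11 and 15 and 345, 367 and 280.2 TPM in the induced clones. Its fold changes were 0.58 ± 0.26 and 0.90 ± 0.20 (adjusted p = 0.262 and 0.0664, edgeR). Fads1 and Fads2 desaturate polyunsaturated fatty acids and lie beside each other on chromosome 19. Fads1 averaged 47.5 ± 11.1 TPM in uninduced wild type and 94.04 ± 26.9 TPM in uninduced clones without overlap, at 0.81 ± 0.23, and the induced difference was 1.12 ± 0.19 (adjusted p = 0.162 and 0.0542, edgeR). After induction Fads1 averaged 35.1 ± 3.93 TPM in wild type and 86.6 ± 22.1 TPM in the clones. Fads2 was at 78.6, 117 and 81.3 TPM in uninduced wild-type replicates 1, 2 and 3, 41.7, 56.6 and 48.8 TPM in the induced ones, 123, 100.4 and 111 TPM in uninduced clones 8, 11 and 15 and 102, 85.8 and 89.0 TPM in the induced clones, and the groups were apart only after induction, at 0.74 ± 0.20 (adjusted p = 0.0868, edgeR).

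Fasn, the fatty acid synthase, was at 85.4, 146 and 176 TPM in uninduced wild-type replicates 1, 2 and 3, 40.8, 106 and 122 TPM in the induced ones, 111, 138 and 81.8 TPM in uninduced clones 8, 11 and 15 and 92.6, 121 and 53.7 TPM in the induced clones. Clone 15 and wild-type replicate 1 were the lowest in both conditions, and the groups overlapped throughout. Acly, which makes cytosolic acetyl-CoA and was the most abundant gene of the list in uninduced wild type, averaged 282 ± 6.77, 269 ± 43.2, 299 ± 16.998 and 281 ± 22.9 TPM in the order uninduced and induced wild type, uninduced and induced ΔCdk8. Its 95% interval for the uninduced log2 difference was -0.38 to 0.24. Acaca and Acacb, the acetyl-CoA carboxylases, overlapped before induction. Acaca averaged 44.3 ± 9.48, 31.004 ± 2.27, 53.3 ± 9.11 and 52.1 ± 10.1 TPM in that order, and the induced groups did not overlap, at 0.55 ± 0.15 (adjusted p = 0.0923, edgeR). Acacb averaged 5.80 ± 0.470, 4.69 ± 0.334, 5.93 ± 0.299 and 6.24 ± 0.604 TPM, and every induced clone was above induced wild type, at 0.23 ± 0.22 (adjusted p = 0.520, edgeR). Elovl6, the elongase that lengthens palmitate, was at 50.8, 36.3 and 37.9 TPM in uninduced wild-type replicates 1, 2 and 3, 82.8, 74.7 and 85.5 TPM in the induced ones, 79.8, 45.3 and 100.3 TPM in uninduced clones 8, 11 and 15 and 86.0, 58.0 and 133 TPM in the induced clones. Uninduced groups overlapped at an estimate of 0.67 ± 0.25 (adjusted p = 0.212, edgeR), which was 0.24 less the median of chromosome 3. After induction no difference was detectable, with a 95% interval of -0.55 to 0.55, and the estimate less the median of chromosome 3 was -0.43. Stard4, a cytosolic carrier that moves cholesterol between membranes, was at 19.9, 16.1 and 13.7 TPM in uninduced wild-type replicates 1, 2 and 3, 8.29, 8.90 and 8.19 TPM in the induced ones, 51.3, 27.4 and 49.1 TPM in uninduced clones 8, 11 and 15 and 38.4, 21.0 and 41.5 TPM in the induced clones. Its fold changes of 1.18 ± 0.23 uninduced and 1.82 ± 0.23 induced were among the largest of the list, without overlap in either condition (adjusted p = 0.124 and 0.0526, edgeR).

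The clones were not alike. Over the 31 genes the median log2 ratio to uninduced wild type, less the autosomal median of the clone, was 0.75 in clone 8, 0.43 in clone 11 and 0.57 in clone 15, and 28, 29 and 26 genes were above 0. Clone 8 was the highest of the clones in 15 genes, clone 11 in 10 and clone 15 in 6. In clones 8, 11 and 15 the log2 ratio was 0.74, 0.33 and 2.05 for Insig1, 1.26, 0.05 and 0.45 for Mvd and 1.06, 0.22 and 0.39 for Srebf2, so that in each case 1 clone stood well above the others. For Msmo1 it was 1.14, 0.82 and 1.09, for Cyp51 0.69, 0.55 and 0.79 and for Nsdhl 0.75, 0.89 and 0.74, with all 3 clones at similar values. No test was made between single clones.

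**Figure D4:**
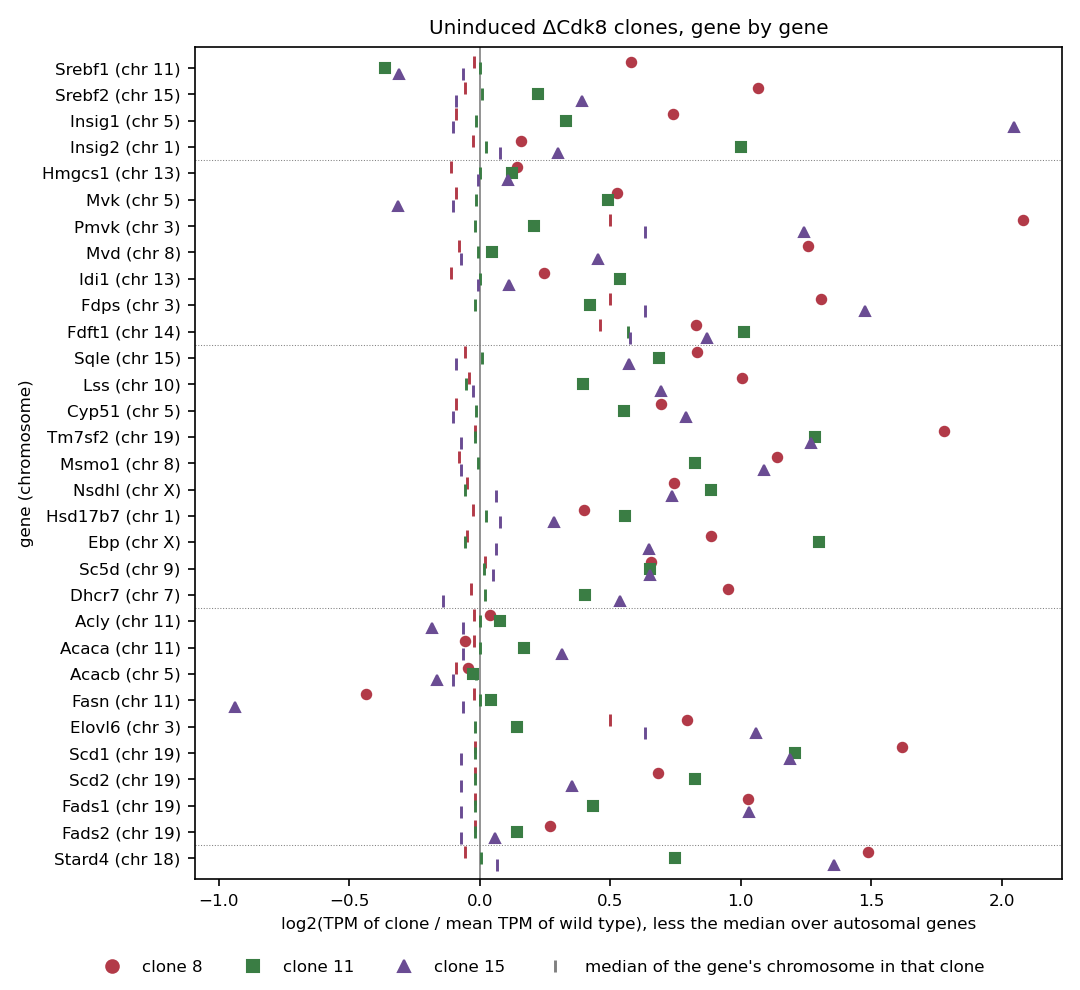
Log2 ratio of the TPM of each uninduced clone to the mean of uninduced wild type, less the clone's median over autosomal genes, for each gene (rows, with chromosome); symbols are clones 8, 11 and 15 and ticks the median of the gene's chromosome in that clone. Ticks stand at 0.50, -0.02 and 0.63 for chromosome 3 and at 0.46, 0.57 and 0.58 for chromosome 14, and Insig1 reaches 2.05 in clone 15.

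Induction of Xist with doxycycline was followed by lower levels of most of these genes in wild-type ESCs, autosomal ones included. No group had doxycycline without inducible Xist, so for autosomal genes an effect of the drug and one of Xist cannot be told apart. The paper describes cell death after induction in this system, and its part was not tested. The median log2 fold change of induced against uninduced wild type was -0.50, against 0.03 over all 14006 genes tested, and 28 of 31 were below 0. By edgeR 1 gene was called lower, Nsdhl, against 1.01% of all genes, and none higher, against 0.15%. At an unadjusted p under 0.05, 18 were lower, against 10.4% of all genes, and at an adjusted p under 0.05 it was 6 (Idi1, Sqle, Cyp51, Nsdhl, Dhcr7 and Stard4), against 2.77%. Elovl6 was the 1 gene higher at that level, where 1.79% of all genes were. In 19 of 31 every induced library was below every uninduced one, against 14.2% of all genes, and in 1, Elovl6, above, against 12.1%. Induced and uninduced libraries of the same number deviated together from their group means, and with the replicate number as a block 17 genes were lower at an adjusted p under 0.05, against 10.8%. With the block, Nsdhl, Cyp51 and Scd1 were called lower, against 2.48%, and Elovl6 higher, against 1.47%. DESeq2 without the block called the same 3 genes lower, against 3.14%. The fit of all 12 libraries called 2 genes lower, against 1.34%. The call of Nsdhl by edgeR was lost without replicate 2 (adjusted p = 0.117) and without replicate 3 (adjusted p = 0.155), and without replicate 1 edgeR called 2 genes lower, against 2.63% of all genes, and 1 higher, against 1.36%. This contrast shares its uninduced wild-type libraries with the uninduced genotype contrast, and its induced ones with the induced genotype contrast, so the 3 sets of values are not independent. Some cell type markers also stood apart in this contrast. Of the 10 pluripotency markers 3 were higher in every induced than in every uninduced wild-type library and 1 lower, against 12.1% and 14.2% of all genes. Esrrb was at 32.4 to 118 TPM uninduced and 209.7 to 247 TPM induced, and Zfp42 at 72.9 to 119 TPM uninduced and 129 to 145 TPM induced. Sox2 was at 172 to 240.2 TPM uninduced and 246 to 367 TPM induced, and Tdgf1, the lower one, at 616 to 960.0 TPM uninduced and 347 to 397 TPM induced. Of the other lists, Lama1 of primitive endoderm was higher at 11.2 to 13.8 against 3.80 to 7.96 TPM, Col3a1 of fibroblasts was lower while below 1 TPM throughout, and no trophoblast marker stood apart. In the clones Tfcp2l1 was the 1 marker of the 4 lists that did not overlap on induction. The part of these markers in the wild-type change was not tested.

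By role, the wild-type median was -0.61 for the enzymes after squalene, -0.43 for the mevalonate and squalene enzymes, -0.47 for the fatty acid enzymes and -0.10 for the regulators. Of the uninduced TPM of replicates 1, 2 and 3, 0.425, 0.560 and 0.485 was left for Cyp51, 0.455, 0.554 and 0.563 for Dhcr7, 0.526, 0.662 and 0.673 for Sqle and 0.564, 0.739 and 0.734 for Lss. In clones 8, 11 and 15 these ratios were 0.870, 0.786 and 0.930 for Cyp51, 1.04, 0.957 and 0.930 for Dhcr7, 0.871, 0.808 and 0.939 for Sqle and 0.982, 0.978 and 0.892 for Lss. No wild-type ratio of these 4 genes reached any ratio of the clones. The log2 fold changes in wild type were -0.99 ± 0.15 for Cyp51, -0.89 ± 0.12 for Dhcr7, -0.67 ± 0.12 for Sqle, -0.50 ± 0.13 for Lss, -0.54 ± 0.12 for Sc5d and -0.45 ± 0.17 for Hsd17b7, and their adjusted p ran from 0.0124 to 0.206 (edgeR). With the replicate block Cyp51 was called at -1.01 ± 0.11 (adjusted p = 0.00369, edgeR). Of the earlier enzymes, the fold changes were -0.45 ± 0.09 for Idi1, -0.52 ± 0.16 for Hmgcs1, -0.66 ± 0.21 for Fdps and -0.43 ± 0.13 for Mvd, with adjusted p from 0.0446 to 0.141. Pmvk, Fdft1 and Mvk overlapped between induced and uninduced wild type, as did Msmo1 and Tm7sf2. Msmo1 kept 0.596, 0.721 and 0.818 of its uninduced TPM in replicates 1, 2 and 3, and its blocked log2 fold change was -0.47 ± 0.12 (adjusted p = 0.0414, edgeR), against an adjusted p of 0.269 without the block. Insig1 retained 0.396, 0.580 and 0.708 of its uninduced TPM in wild type, at a log2 fold change of -0.83 ± 0.20 (adjusted p = 0.0700, edgeR), and 0.932, 0.817 and 1.00 in the clones. Srebf2 retained 0.765, 1.08 and 1.09 and Srebf1 0.859, 1.05 and 1.18 in wild type, with overlapping groups. Stard4 retained 0.416, 0.553 and 0.597 in wild type, at -0.95 ± 0.17 (adjusted p = 0.0302, edgeR), and 0.749, 0.768 and 0.847 in the clones. With the block the adjusted p was 0.0261 for Insig1, 0.0287 for Hmgcs1, 0.0416 for Fdps, 0.030 for Lss, 0.0117 for Sc5d and 0.0107 for Ebp (edgeR), none of them past the 2-fold threshold.

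Scd1 showed the widest contrast among the fatty acid genes. Wild-type replicates 1, 2 and 3 kept 0.337, 0.383 and 0.483 of the uninduced TPM and clones 8, 11 and 15 0.927, 0.927 and 0.972. Its wild-type log2 fold change was -1.39 ± 0.35 (adjusted p = 0.0790, edgeR) and, with the replicate block, -1.31 ± 0.13, which was called (adjusted p = 0.00295, edgeR). The other desaturases and the carboxylases had -0.69 ± 0.24 for Scd2, -0.85 ± 0.21 for Fads2, -0.47 ± 0.16 for Acaca and -0.25 ± 0.14 for Acacb, with adjusted p from 0.0721 to 0.358. With the block it was 0.00515 for Fads2 and 0.0498 for Acaca (edgeR), below the 2-fold threshold. Elovl6 went the other way. It stood at 1.63, 2.06 and 2.25 times its uninduced TPM in wild-type replicates 1, 2 and 3 and at 1.08, 1.28 and 1.33 times in the clones, at a wild-type fold change of 0.98 ± 0.16 (adjusted p = 0.0225, edgeR), called with the block at 1.00 ± 0.12 (adjusted p = 0.00559, edgeR). Acly, Fasn and Fads1 overlapped between induced and uninduced wild type, but Fasn was lower in each replicate than in the uninduced library of the same number, at 0.477, 0.728 and 0.692 of the uninduced TPM. Its blocked log2 fold change was -0.66 ± 0.15 (adjusted p = 0.0287, edgeR), against an adjusted p of 0.537 without the block.

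The X-linked enzymes have to be read against the X chromosome, which Xist silences. Over 480 tested X-linked genes the median log2 fold change on induction was -1.55 in wild type, and over 531 it was -0.70 in ΔCdk8 cells. Nsdhl, on chrX:72918557-72958514, fell in wild type by a log2 fold change of -1.69 ± 0.22 (adjusted p = 0.00966, edgeR), and 0.169, 0.271 and 0.205 of its TPM remained in replicates 1, 2 and 3. In the clones 0.504, 0.516 and 0.5002 remained, at -0.92 ± 0.14 (adjusted p = 0.474, edgeR; 1.5e-07 with the clone as block). Less the X median these were -0.15 in wild type and -0.21 in ΔCdk8 cells, so that most of its change was that of the chromosome's median gene. For Nsdhl 76.2% of the reads mapped to 1 place and 29.3% lay in introns. Ebp kept 0.579, 0.482 and 0.533 in wild type and 0.818, 0.887 and 0.665 in the clones. Its wild-type fold change of -0.88 ± 0.21 (adjusted p = 0.0703, edgeR) was 0.67 above the X median, and the -0.28 of the clones was 0.42 above theirs. Over the 29 autosomal genes alone the median was -0.47 in wild type.

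**Figure D5:**
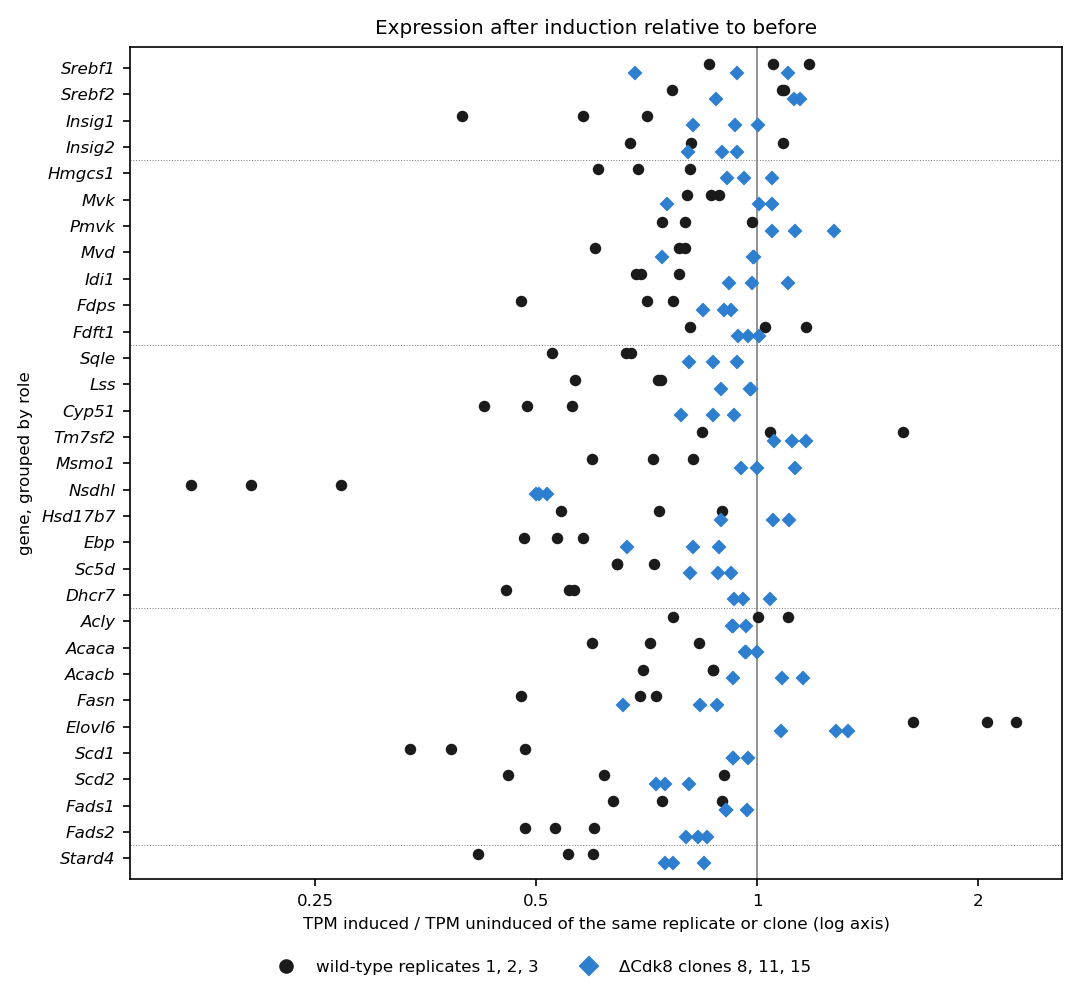
TPM after induction divided by TPM before it, for each gene (rows) and each wild-type replicate (black circles) or ΔCdk8 clone (blue diamonds), on a log axis. The clones lie to the right of all wild-type replicates for 19 of the 31 genes, and to the left for 1, Elovl6.

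In ΔCdk8 clones the same induction left most of the 31 genes near their uninduced level. The median log2 fold change was -0.06, against 0.01 over 14832 genes. By edgeR none was called, against 0.0% of all genes called lower and 0.0% higher, and 1, Nsdhl, had an unadjusted p under 0.05, against 2.09%. DESeq2 called none, against 0.243% of all genes called lower. In 2 of 31, Nsdhl and Scd2, every induced clone was below every uninduced one, against 3.62%. With the clone as block, 5 genes were lower at an adjusted p under 0.05, against 6.16%, and Elovl6 was higher, against 5.6%, but none passed the 2-fold threshold. The blocked log2 fold changes were -0.92 ± 0.08 for Nsdhl, -0.38 ± 0.07 for Scd2, -0.33 ± 0.08 for Fasn, -0.32 ± 0.08 for Stard4, -0.25 ± 0.08 for Fads2 and 0.32 ± 0.07 for Elovl6. Their adjusted p ran from 1.5e-07 for Nsdhl to 0.0360 for Fads2 (edgeR). Without the block that of Scd2 was -0.37 ± 0.22 (adjusted p = 1.00, edgeR). Over the 17 sterol enzymes the median was -0.01.

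An interaction term fitted to the 12 libraries asked whether the change on induction differed between the genotypes. A positive value means a higher induced level relative to the uninduced one in ΔCdk8 than in wild-type cells. Xist levels of these libraries were not compared. The paper's RT-PCR found more Xist in wild-type than in ΔCdk8 cells, and its imaging found comparable Xist clusters. Its survival assay found more surviving ΔCdk8 cells after induction. The part of such differences was not tested. The median over the 31 genes was 0.47, against 0.00 over all 15137 genes, and 28 of 31 were above 0. Without a block no gene was called, like 0.0% of all genes, and 9 had an unadjusted p under 0.05 in the positive direction, against 2.68%. DESeq2 called none of the 31, against 0.205% of all genes in that direction. In 19 of 31 the ratio of induced to uninduced TPM was higher in every clone than in every wild-type replicate, against 13.7% of genes, and in 1, Elovl6, lower, against 14.7%. With replicate and clone as block, 8 genes were positive at an adjusted p under 0.05, against 3.55% of all genes, 3 at an adjusted p under 0.01, against 1.16%, and 1, Scd1, was called, against 0.78%. Scd1 had a blocked interaction of 1.27 ± 0.14 (adjusted p = 0.00190, edgeR), Dhcr7 of 0.89 ± 0.12 (adjusted p = 0.00384) and Cyp51 of 0.84 ± 0.13 (adjusted p = 0.00682). The same 3 had 1.34 ± 0.42 for Scd1, 0.91 ± 0.28 for Dhcr7 and 0.83 ± 0.21 for Cyp51 without the block, at adjusted p from 0.520 to 0.813. The others with the block were Idi1, Sqle, Nsdhl, Fads2 and Stard4, with 0.49 ± 0.09, 0.52 ± 0.13, 0.81 ± 0.16, 0.61 ± 0.12 and 0.64 ± 0.15, and Elovl6 had -0.66 ± 0.15 in the negative direction (adjusted p = 0.0307, edgeR). Less the X median of 0.93, the unblocked value of 0.80 ± 0.25 for Nsdhl was -0.13 and that of 0.62 ± 0.41 for Ebp was -0.31. Of the remaining genes whose ratios did not overlap, the unblocked values were 0.52 ± 0.20 for Hmgcs1, 0.39 ± 0.16 for Sc5d, 0.51 ± 0.31 for Lss, 0.61 ± 0.31 for Msmo1, 0.81 ± 0.69 for Insig1, 0.54 ± 0.43 for Fdps, 0.47 ± 0.77 for Pmvk, 0.47 ± 0.23 for Acaca, 0.37 ± 0.24 for Acacb and 0.33 ± 0.30 for Fads1, at adjusted p of 1.00 (edgeR).

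A further 39 genes of sterol and fatty acid metabolism, their regulation or their promoters' binding factors were examined in the same way. Their median log2 fold changes were 0.09 in uninduced and 0.11 in induced ΔCdk8 against wild type, and -0.09 and -0.01 on induction in wild type and in ΔCdk8 cells. By edgeR 0 of 39 were called in either genotype contrast, in ΔCdk8 on induction or in the interaction, where 0.0% of all genes were called higher. In wild type on induction 1 of 38 was called lower, against 1.01% of all genes. With the replicate block 2 of the 38 were called lower there, Acsl4 and Mid1ip1, and 1 higher, Lpin1, at -3.17 ± 0.22, -2.57 ± 0.26 and 1.27 ± 0.14 (adjusted p = 0.00102, 0.00303 and 0.00407, edgeR), against 2.48% of all genes lower and 1.47% higher. DESeq2 without the block called the same 3 genes, against 3.14% lower and 1.59% higher. The gene called by edgeR without the block was Acsl4, an X-linked acyl-CoA synthetase, at -3.15 ± 0.25 (adjusted p = 0.00237, edgeR), below the X median of -1.55. In uninduced cells 6 of the 39 were higher and 3 lower at an unadjusted p under 0.05, against 11.9% and 8.49% of all genes. The 6 with the smallest p and no overlap had -0.67 ± 0.20 for Nfyc, 0.42 ± 0.13 for Acat2, 0.39 ± 0.13 for Elovl5, 0.49 ± 0.17 for Erlin1, 0.39 ± 0.15 for Fbxw7 and 0.29 ± 0.14 for Npc2, at adjusted p from 0.172 to 0.267. Nfyc encodes a subunit of NF-Y and was lower in the clones. Acat2 makes acetoacetyl-CoA, the entry to the mevalonate steps, Elovl5 is a fatty acid elongase, Erlin1 a membrane protein of the endoplasmic reticulum, Fbxw7 part of the ubiquitin ligase that marks nuclear SREBP, and Npc2 a carrier of cholesterol out of lysosomes. Fbxw7 lies on chromosome 3, whose median was 0.42. In induced cells 11 were higher and 2 lower at that p, against 14.9% and 11% of all genes, and the 6 genes chosen in the same way had 1.99 ± 0.34 for Acsl4, 0.69 ± 0.15 for Elovl5, 0.98 ± 0.22 for Acsl3, -0.83 ± 0.20 for Lpin1, -0.86 ± 0.22 for Nfyc and 0.66 ± 0.20 for Erlin1, at adjusted p from 0.0536 to 0.102. DESeq2 called 2 of the 39 higher in induced cells, Acsl4 and Acss2, against 3.83% of all genes. Acss2, which makes acetyl-CoA from acetate and is named here because of that call, had 1.84 ± 0.54 by edgeR with overlapping groups (adjusted p = 0.0971) and a DESeq2 estimate of 1.82 (adjusted p = 0.00765). On induction of ΔCdk8 clones only 2 of the 39, Mid1ip1 and Tmem97, did not overlap, both lower, where 3.62% of all genes were lower in this sense. Their fold changes were -0.95 ± 0.43 for Mid1ip1 and -0.15 ± 0.16 for Tmem97 (adjusted p = 1.00, edgeR), and Mid1ip1 is X-linked. In the interaction the 6 were 2.29 ± 0.42 for Acsl4, -1.39 ± 0.32 for Lpin1, -0.75 ± 0.22 for Fbxw7, 0.74 ± 0.28 for Acsl3, 1.52 ± 0.63 for Mid1ip1 and 0.42 ± 0.19 for Lbr, at adjusted p from 0.178 to 1.00. With the block Acsl4 and Lpin1 were called there (adjusted p = 0.00161 and 0.00464, edgeR), in opposite directions, against 0.78% of all genes higher and 0.218% lower. DESeq2 without the block called Acsl4 in the interaction (adjusted p = 0.000517), against 0.205% of all genes. Acsl3 and Acsl4 attach fatty acids to coenzyme A, Lpin1 makes diacylglycerol from phosphatidate, and Lbr is a sterol reductase of the nuclear membrane.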

How the data were processed

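RNA of 12 mouse ESC libraries was sequenced as 125-base single-end reads from a strand-specific poly(A) protocol. The authors mapped the reads and obtained per-gene counts with CLC Genomics Workbench 11 against Ensembl GRCm38 release 94, and deposited for each library the total gene reads, exon, intron and unique reads and TPM. Whether the counting used strand is not given in the sources used here. The deposited TPM values equal exon reads over exon length, scaled to the library. Columns of the total read counts entered edgeR 4.0.16 (R 4.3.3; TMM scaling, filterByExpr keeping genes from 10 reads per library and 15 in all, quasi-likelihood test, p adjusted by Benjamini-Hochberg over all genes tested), and DESeq2 1.42.0 (Wald test) was the alternative. Contrasts used their 2 groups of 3 libraries each, the interaction all 12, and called genes differed over 2-fold at an adjusted p under 0.01. Library totals ran from 22170087 to 60798578 gene reads.

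Groups came from the labels. All 31 genes are named, with a fold change where the unadjusted p was under 0.05 or the groups did not overlap, and of the 39 other pathway genes those called or up to 6 with the smallest p whose groups did not overlap. The genes, lists and tests were chosen with earlier results of these data known. Same-numbered libraries are the same clone in ΔCdk8 cells. The deviations from the group means over 15137 genes correlated between the induced and uninduced library of a number at 0.69, 0.62 and 0.57 in wild-type replicates 1, 2 and 3. In clones 8, 11 and 15 it was 0.88, 0.91 and 0.86. Between different numbers, uninduced wild-type replicate 2 correlated with induced replicate 3 at 0.41, and uninduced 3 with induced 2 at 0.20. The other wild-type pairs were negative, and the clones reached 0.04 at most. The numbers were used to pair the samples, although for wild type nothing states that they mark the same culture. Fits with the number as a block stand beside a result where they change its call. Chromosome medians of TPM used genes with a mean of at least 1 TPM. Promoter sequences are RefSeq's for GRCm38.p6, and coordinates are those of GRCm38. The statistical code was tested on simulated data. The simulated counts had no pairing and less spread than the common dispersions of 0.0857 to 0.142 fitted here, so that test does not give the power in these data. Alternatives were DESeq2, no filter on low counts, exon reads, 1 fit of all libraries, the replicate block, leaving out each replicate or clone and subtracting the chromosome median. Leaving out a replicate or clone removed all of its libraries from the contrast.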

Additional observations from a re-analysis of the deposited data

Results flagged for a closer look

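For 3 of the 31 genes the change on induction with doxycycline differed between wild-type and ΔCdk8 cells at an adjusted p under 0.01 with the replicate block. This held for 1.16% of all genes in the same direction. Scd1 alone of the 3 also passed the 2-fold threshold. For Pmvk the directions differed without a test that passed. Xist level and cell survival may differ between the genotypes, and their part was not tested. With the replicate number as a block, the difference in log2 fold change on induction between ΔCdk8 and wild-type cells was 1.27 for Scd1, 0.89 for Dhcr7 and 0.84 for Cyp51 (edgeR, adjusted p = 0.00190, 0.00384 and 0.00682), and in each of them all 3 clones kept more of their uninduced TPM than any wild-type replicate. Without the block none of the 3 passed by edgeR or DESeq2. Pmvk, on chromosome 3, went opposite ways in the genotypes. Its induced TPM was 0.984, 0.798 and 0.743 of the uninduced TPM in wild-type replicates 1, 2 and 3, and 1.27, 1.13 and 1.05 of it in clones 8, 11 and 15, with a mean of 1.15 over the clones. The interaction of Pmvk was 0.46 ± 0.12 (SE) with the block (edgeR, adjusted p = 0.0609) and 0.47 ± 0.77 without it (adjusted p = 1.00), and passed in neither fit, so the opposite directions are a description of these ratios.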

How the results depend on the processing

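The genotype calls depended on the test. In uninduced cells edgeR called 0 of 31 genes higher, DESeq2 3, and 14 by DESeq2 at an adjusted p under 0.05. In induced cells edgeR called 0, or 1 at an adjusted p under 0.05, 1 without the filter on low counts and 8 in the fit of all 12 libraries. DESeq2 called 14, or 22 at an adjusted p under 0.05. By edgeR, leaving out 1 library gave 0 to 4 calls, the 4 without clone 11. The cause was not tested. The median log2 fold change ranged from 0.57 to 0.71 uninduced and from 0.92 to 1.08 induced when 1 library was left out. On induction of wild type, 1 gene was called lower by edgeR, 3 by DESeq2, 2 in the fit of all 12 libraries and 6 at an adjusted p under 0.05. Leaving out 1 replicate, its induced and uninduced library together, gave 0 to 2 lower and 0 to 1 higher (0 higher with all libraries, 1 at an adjusted p under 0.05). The call of Nsdhl was lost without replicate 2 or replicate 3. In ΔCdk8 cells the median of -0.06 was -0.0730 by DESeq2 and -0.0778 to -0.0655 without 1 clone. The mean sterol sum of induced wild type, 822 TPM, was 888 TPM over the median ratio.

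With the numbers paired as a block, wild type had 3 genes lower and 1 higher on induction, and 17 lower and 1 higher at an adjusted p under 0.05. ΔCdk8 cells had 5 lower and 1 higher at that adjusted p, and the interaction had 1 called higher, with 8 higher and 1 lower at that adjusted p. Among the other pathway genes edgeR called 1 higher and 2 lower in wild type with the block and 0 and 1 without it, and DESeq2 without the block called 1 and 2. In the interaction edgeR called 1 higher and 1 lower with the block and none without it, and DESeq2 without the block called 1 higher and 0 lower. No fold change given for one of the 31 genes changed sign under these alternatives, other than less the median of the X chromosome, where the interactions of Nsdhl and Ebp became -0.13 and -0.31 and the induction of Ebp became 0.67 in wild type and 0.42 in ΔCdk8 cells. The induced genotype estimate of Elovl6, given as an interval, ran from -0.25 to 0.19 with 1 library left out. Less the median of chromosome 3 it was -0.43. Of the other pathway genes named, Fbxw7 in uninduced cells went from 0.39 to -0.03 less the median of chromosome 3. Of such values, 852 kept their side of the threshold, 39 moved past it and 2 fell short of it. The adjusted p under 0.05 by DESeq2 and with the block, the TPM over the median ratio and the sterol sum without chromosomes 3 and 14 were chosen after seeing the data. The 3 libraries per group limit these tests.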
